A study of Drosophila melanogaster with 18 samples.

Results

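Fly embryos in which the Arm-Gal4 driver expressed the transcription factor E2f1 together with its partner Dp were set against embryos of the same driver crossed to yw. The comparison covers all genes on the array and uses 4 of the 18 arrays in the series, 2 per cross, chosen by the sample titles alone. Both crosses were sampled 8 to 10 h after egg laying, and every embryo of either cross carried the driver. The armadillo promoter behind this driver is active in most embryonic cells, so the transgenes were not limited to a cell type. The embryos carried both transgenes at once, so an effect of E2f1 and an effect of Dp cannot be told apart, and neither can the transgenes and the stock they came from. For contrast, 2 further crosses to the same driver, of the same age, are used. One expressed E2f2 with Dp (2 arrays), and the other a dominant negative E2f1 fragment (residues 336 to 805) that cannot bind DNA for want of that domain (2 arrays). The other arrays hold a cross in which the same driver overexpressed Rbf1, Dp null mutants (Dpa2/Dpa4), E2f1 null mutants (E2f17172/E2f191) at both ages, and the control at 14 to 16 h.

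E2F proteins bind DNA as dimers with Dp and switch genes for DNA replication and cell cycle entry on and off. In flies E2f1 is mainly an activator, E2f2 a repressor, and the retinoblastoma-family proteins Rbf and Rbf2 bind E2F and hold it in check. At 8 to 10 h most epidermal cells have stopped dividing, while the nervous system goes on dividing, and muscle, gut and cuticle genes are starting to be expressed.

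Each sample was RNA pooled from about 200 to 700 whole embryos. In such pools, fewer cells of a type and less RNA per cell cannot be told apart. Nothing in the labels tells if the RNA samples of 1 cross were collected separately, and the p-values therefore reflect just the spread between the samples at hand. Values are normalized probe-set signals, and 8976 units were tested with limma: 7927 genes with a name and 1049 probe sets that match no gene or several. Changes are log2 of E2f1/Dp over control with their standard error, n = 2 arrays per group, and passing means a Benjamini-Hochberg adjusted p under 0.05 over all units. Across genes, the E2f1/Dp arrays correlated with each other at r = 0.906 and the control arrays at r = 0.894, and replicate 2 of E2f1/Dp correlated with replicate 2 of the control at r = 0.918. Replicate arrays differed by a median of 0.43 on the log2 scale in the control, more than in any other group (0.253 to 0.365).

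The manipulated transcripts were examined first, as a check of the labels. E2f1 read 12282 and 6952 in E2f1/Dp embryos, against 2654 and 1325 in control embryos. The groups did not overlap and the fold was 4.93, but the difference did not pass (log2 2.30 ± 0.54, adjusted p = 0.163). The replicates of each group lay far apart, and the standard error also took in the spread of the other groups, Rbf1 embryos included. The probe set cannot separate the transgene's transcript from the gene's own. It read 4139 and 4702 with the E2f1 fragment and 1076 and 1008 with E2f2/Dp. Rbf1 embryos had a mean of 8434 on it, with a standard deviation of 7372 over their 2 arrays. High E2f1 signal was thus not limited to the crosses with an E2f1 transgene. The difference of E2f1/Dp from E2f2/Dp embryos passed (log2 3.15, adjusted p = 0.0257).

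Dp read 5918 and 5340 in E2f1/Dp embryos, against 2090 and 1649 in control embryos. It rose 3.03-fold (log2 1.60 ± 0.19, adjusted p = 0.00147). E2f2/Dp embryos, which express Dp from a transgene too, read 4283 and 4477. Dp in E2f1/Dp embryos differed from these by only 0.36 on the log2 scale (adjusted p = 0.488), and both groups were above all other arrays.

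The remaining members of the network showed no called change. E2f2, the repressor E2F, read 1893 and 4451 in E2f1/Dp embryos and 2376 and 1979 in control embryos, so its E2f1/Dp replicates lay on either side of the control (log2 0.42, adjusted p = 0.708). Rbf read 396.3 and 278 in E2f1/Dp embryos and 343.8 and 240.7 in control embryos, with overlapping groups (log2 0.21, adjusted p = 0.905). Rbf2, the other retinoblastoma-family gene, had a log2 change of 0.88 (adjusted p = 0.701).

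**Figure D1:**
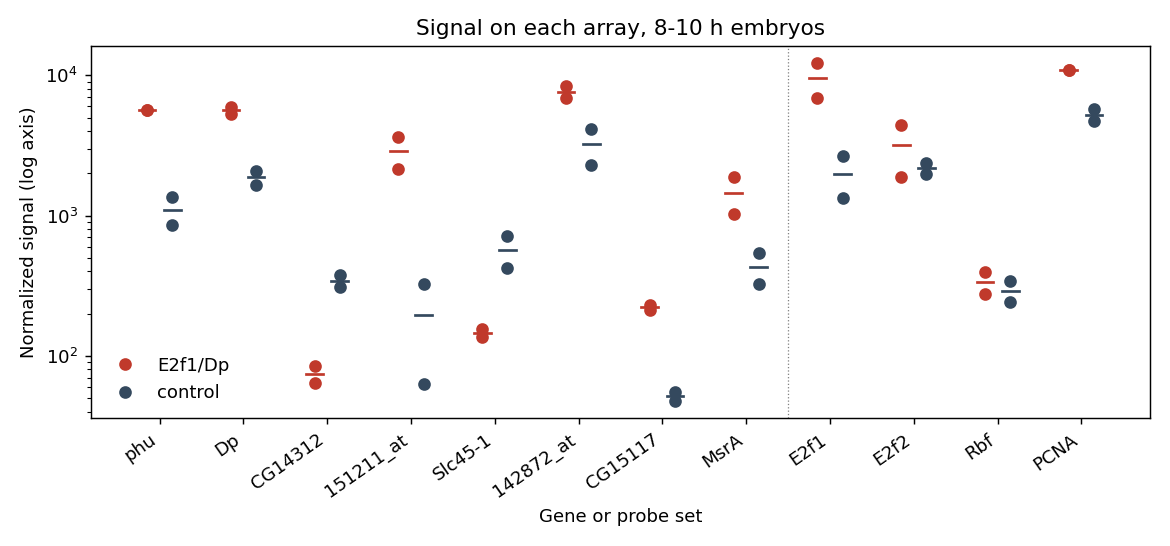
Normalized signal (log axis) on each array of E2f1/Dp embryos (red, left) and control embryos (blue, right), with 1 point per array and a bar at the mean of 2. Left of the dotted line stand the 8 units that passed, and right of it E2f1, E2f2, Rbf and PCNA, which did not. E2f2 and Rbf overlap between the groups, and every other unit shown has no overlap.

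Few genes passed against the control. Of the 8976 units 8 passed (0.0891%), 6 of them higher (0.0668%) and 2 lower (0.0223%), with 767 (8.55%) at an unadjusted p under 0.05. The count lay between 6, without E2f1/Dp replicate 1, and 100, without control replicate 2, when 1 array was left out. The count was 0 in limma on the 4 arrays alone, where 364 of 8976 units had an unadjusted p under 0.05, against 767 in the main fit. Of the 8, 4 named genes rose (phu, Dp, MsrA and CG15117), 2 named genes fell (CG14312 and Slc45-1), and 2 probe sets without a named gene rose. Both E2f1/Dp arrays of 6 of the 8 lay beyond all 12 other arrays of the same age. Over all units 148 (1.65%) lay above and 129 (1.44%) below. The 12 include the 2 control arrays that the calls were made against, so the 6 are no separate support for them.

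The largest response of a named gene that passed was that of phu, on chromosome arm 3R, for which RefSeq lists the synonym Alp3. It read 5678 and 5639 in E2f1/Dp embryos, against 1351 and 850.3 in control embryos. The E2f1/Dp replicates were nearly equal, and the rise was 5.28-fold (log2 2.40 ± 0.26, adjusted p = 0.00103). The highest of the 12 other arrays of this age was control replicate 1, and E2f1 mutants were lowest at 249.1 and 162.6. Dp mutants read 400 and 315.1, so both mutants lay below every driver cross. phu was also higher in E2f1/Dp embryos than in E2f2/Dp embryos (log2 2.99, adjusted p = 2.95e-05), which read 717 and 704.6. Against the E2f1 fragment, which read 895.3 and 836.2, the log2 difference was 2.71 (adjusted p = 3.44e-05).

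CG14312, a gene on 3R with no role given here, went the other way. It read 64 and 84.9 in E2f1/Dp embryos, against 376.2 and 308.8 in control embryos. It fell 4.62-fold (log2 -2.21 ± 0.27, adjusted p = 0.00147). The 12 other arrays of this age read between 256.9 and 491.6, so no other genotype, mutants included, came near the E2f1/Dp level. It was lower in E2f1/Dp than in E2f2/Dp embryos (log2 -2.64, adjusted p = 1.07e-04) and than with the fragment (log2 -2.49, adjusted p = 7.94e-05).

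Slc45-1, a sugar transporter gene on 3L, read 136.1 and 154.2 in E2f1/Dp embryos, against 721 and 419.9 in control embryos. It fell 3.8-fold (log2 -1.93 ± 0.27, adjusted p = 0.00542), a call lost without E2f1/Dp replicate 1 (adjusted p = 0.0666). Its lowest value on the 12 other arrays was 274.5, in E2f2/Dp embryos, and its highest 1175, in E2f1 mutants. The gene was lower than with the E2f1 fragment (log2 -1.30, adjusted p = 0.0144), and its difference from E2f2/Dp did not pass (log2 -1.04, adjusted p = 0.12).

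MsrA encodes methionine sulfoxide reductase A, which repairs oxidised methionine. It read 1023 and 1871 in E2f1/Dp embryos, against 325.7 and 540.6 in control embryos. Both E2f1/Dp arrays were above all 12 others, of which the highest was 699, and the rise was 3.3-fold (log2 1.72 ± 0.30, adjusted p = 0.0494). The call was not kept without control replicate 1 (adjusted p = 0.157) or E2f1/Dp replicate 2 (adjusted p = 0.191), nor with no filter on dim probe sets (0.0641), without the trend (0.1) or with a replicate block (0.0585). The differences from E2f2/Dp (log2 1.14, adjusted p = 0.131) and from the fragment (log2 1.12, adjusted p = 0.0741) did not pass.

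CG15117, on 2R, had a different pattern across the series. It read 212.2 and 231.2 in E2f1/Dp embryos, against 47.5, the floor, and 55.1 in control embryos. It rose 4.33-fold (log2 2.11 ± 0.37, adjusted p = 0.0456), a call lost without control replicate 1 (adjusted p = 0.131) or either E2f1/Dp array (adjusted p = 0.119 and 0.121), and with median centring (0.0543), an offset of 50 (0.0519) or a replicate block (0.0681). E2f2/Dp embryos read 221.4 and 165.6, Dp mutants 274.4 and 262.1 and E2f1 mutants 260.7 and 293.3, all above the control of the same age. The fragment and Rbf1 groups, with means of 117.6 and 141.5, were above the control too. The control was thus the lowest group of this age, and the higher signal was not particular to E2f1/Dp. CG15117 in E2f1/Dp embryos was 0.21 above E2f2/Dp on the log2 scale (adjusted p = 0.884).

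The probe sets without a named gene also differed in pattern. Probe set 151211_at read 3663 and 2132 in E2f1/Dp embryos, against 62.9 and 326.9 in control embryos (19.5-fold, log2 4.29 ± 0.56, adjusted p = 0.00298). It passed against E2f2/Dp (log2 3.38, adjusted p = 0.0232) and against the fragment (log2 3.63, adjusted p = 0.00189), and yet other genotypes had signals of the same size. Dp mutants read 2145 and 2231 on 151211_at and E2f1 mutants of this age 1473 and 2213, close to the second E2f1/Dp array. Without E2f1/Dp replicate 1 the call against the control was lost (adjusted p = 0.0641).

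Probe set 142872_at read 6867 and 8414 in E2f1/Dp embryos, against 4159 and 2304 in control embryos (2.46-fold, log2 1.30 ± 0.22, adjusted p = 0.0387). On 142872_at both E2f1/Dp arrays exceeded all 12 others, and the mutants were the lowest, with 1294 and 1536 in Dp mutants and 1272 and 1253 in E2f1 mutants. The call on 142872_at was lost without either E2f1/Dp array (adjusted p = 0.0712 and 0.15), with median centring (0.18) and with the scaling as deposited (0.0744). It was also lost with no filter on dim probe sets (0.0521), without the trend (0.122) and with a replicate block (0.0585).

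Set against the 2 other crosses, 3 of the 8 units passed against E2f2/Dp (27 of 8976 units passed there, 0.301%), and 6 of the 8 passed against the fragment (215 units, 2.4%). phu, CG14312 and 151211_at passed in all 3 comparisons, which share the E2f1/Dp arrays. The larger count against the fragment was lopsided, with 185 units higher in E2f1/Dp embryos (2.06%) and 30 lower (0.334%).

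**Figure D2:**
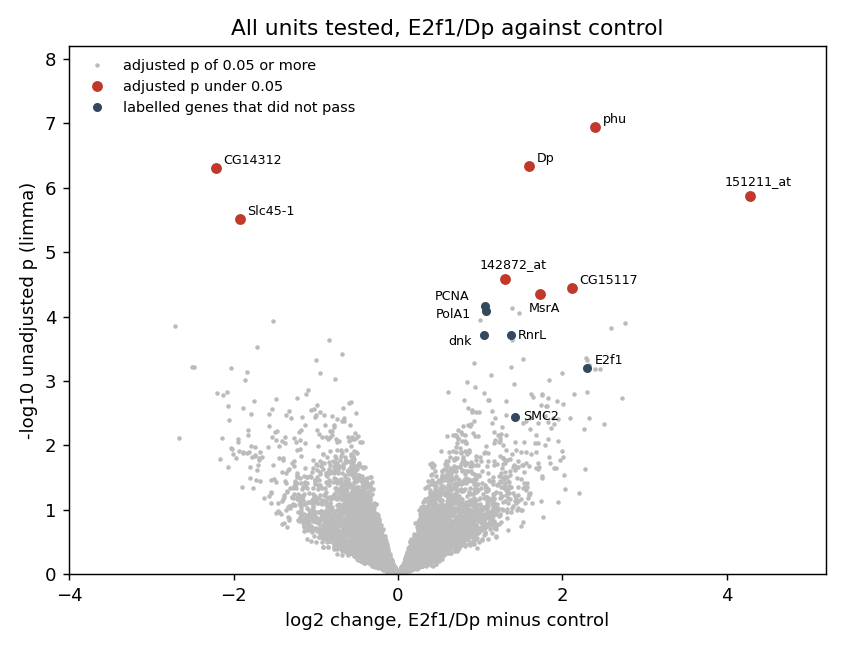
All 8976 units, with the log2 change of E2f1/Dp minus control on the x axis and -log10 of the unadjusted limma p on the y axis. The 8 units with an adjusted p under 0.05 are red, and E2f1, PCNA, PolA1, RnrL, dnk and SMC2, which did not pass, are dark.

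Replication fork genes were mostly higher in E2f1/Dp embryos in sign, and none of them passed against the control. Of 21 tested members 20 had a positive log2 change, with a median of 0.31, against 47.4% positive and a median of -0.02 over all units. The groups did not overlap for 10 of the 21, all higher (15% of all units), and 5 had an unadjusted p under 0.05, all higher (4.42% of all units, with 4.12% lower).

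PCNA, the sliding clamp of DNA polymerases and a classical E2F target, held the same rank on both E2f1/Dp arrays and read 10848.5 on each, against 5775 and 4702 in control embryos. The 2.08-fold difference did not pass (log2 1.06 ± 0.20, adjusted p = 0.0651). It passed against E2f2/Dp (log2 1.16, adjusted p = 0.0244) and the fragment (log2 0.97, adjusted p = 0.0115). The highest of the 12 other arrays read 6223, with the fragment.

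PolA1, which encodes the catalytic subunit of polymerase alpha, read 2374 and 2150 in E2f1/Dp embryos, against 1009 and 1143 in control embryos (log2 1.07 ± 0.20, adjusted p = 0.0651). The fragment embryos read 1621 and 1991, only 0.33 lower on the log2 scale (adjusted p = 0.59), so PolA1 lay above the control in that cross too. In RefSeq's annotation (Release 6) 1 gene lies wholly between E2f1 and PolA1 on 3R. Whether their positions bear on these signals was not tested.

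RPA1, the large subunit of the protein that coats single-stranded DNA, read 2849 and 2212 in E2f1/Dp embryos, against 1677 and 827.1 in control embryos (log2 1.09, adjusted p = 0.267). It passed against the fragment (log2 1.25, adjusted p = 0.0304), at 982.3 and 1131. PolE1, the catalytic subunit of DNA polymerase epsilon, read 790.1 and 557.5 in E2f1/Dp embryos, against 338 and 150.5 in control embryos (log2 1.56, adjusted p = 0.322). The other fork genes ran between -0.06 for RPA3 and 1.28 for PolE2.

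Origin licensing and firing genes, which load and start the replicative helicase, had 16 of 19 positive and a median of 0.33. Orc1, the largest subunit of the origin recognition complex, read 986.9 and 1086 in E2f1/Dp embryos, against 738.4 and 397.4 in control embryos (log2 0.93, adjusted p = 0.387). Mcm2, a helicase subunit, read 1910 and 1748 in E2f1/Dp embryos, against 1305 and 797.5 in control embryos (log2 0.84, adjusted p = 0.464). Neither gene overlapped between the groups. Mcm10 had a log2 change of 0.72 and Orc2, whose groups overlapped, one of 1.30. None of the 19 passed in any of the 3 comparisons, although all 19 were higher than in E2f2/Dp embryos in sign (median 0.54; 47.6% of all units were positive there).

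Of 6 deoxynucleotide synthesis genes 4 were positive, and 2 stood out. RnrL, the large subunit of ribonucleotide reductase, read 1602 and 1599 in E2f1/Dp embryos, against 738.1 and 518.8 in control embryos (log2 1.37 ± 0.28, adjusted p = 0.0914). dnk, the fly's deoxynucleoside kinase, read 4629 and 4415 in E2f1/Dp embryos, against 2797 and 1711 in control embryos (log2 1.05 ± 0.21, adjusted p = 0.0914). Both genes were above all 12 other arrays, and dnk passed against the fragment (log2 1.53, adjusted p = 9.19e-04). dUTPase had a log2 change of 0.31, Ts (thymidylate synthase) 0.18 and Ctps (CTP synthase) -0.18, and Shmt was at the floor on both E2f1/Dp arrays.

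Of 19 cohesion, condensation and chromatin assembly genes 15 were positive, with a median of 0.31, and none passed. SMC2, a core subunit of condensin, read 2094 and 2042 in E2f1/Dp embryos, against 846.6 and 696.3 in control embryos (log2 1.43 ± 0.41, adjusted p = 0.312). The 12 other arrays did not exceed 899.8, so the E2f1/Dp replicates stood well apart. Its standard error, taken from the spread within all groups, was 0.41, against 0.20 for PCNA.

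dmt had a log2 change of 1.16, the histone chaperone asf1 0.55 and the histone variant His2Av 0.41. The adjusted p-values of these 3 genes were 0.488, 0.568 and 0.491. Mean dmt signal was 600.3 in E2f1/Dp embryos and 643 in Dp mutants.

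Regulators of the G1 to S transition did not lean one way. Of 11 members 5 were positive and the median was -0.18. Cdk2, the kinase partner of cyclin E, read 1920 and 1729 in E2f1/Dp embryos, against 1037 and 1000 in control embryos (log2 0.84 ± 0.21, adjusted p = 0.215), above all 12 other arrays. CycE itself, another classical E2F target, read 2483 and 1484 in E2f1/Dp embryos and 1631 and 821 in control embryos, with overlapping groups (log2 0.73, adjusted p = 0.617). CycD was lower without passing, at 880.9 and 776 in E2f1/Dp embryos and 1200 and 1004 in control embryos (log2 -0.41, adjusted p = 0.617).

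DNA damage genes had 11 of 17 positive (median 0.17). rad50, of the complex that senses double-strand breaks, read 818.3 and 639.2 in E2f1/Dp embryos, against 257.6 and 285.6 in control embryos (log2 1.41, adjusted p = 0.223). Msh6, a mismatch repair gene, read 809 and 666 in E2f1/Dp embryos, against 437.5 and 116.1 in control embryos (log2 1.70, adjusted p = 0.392). tefu, the fly ATM kinase, had a log2 change of 0.93 and the end-joining gene Ku80, at the floor on 1 E2f1/Dp array, one of -1.02. Mean tefu signal was 312 in E2f1/Dp embryos and higher, at 467.4, in Dp mutants. Mitosis genes had 14 of 30 positive and a median of -0.05, with mad2 of the spindle checkpoint at 0.70, the kinesin Klp61F at 0.60 and the microtubule polymerase msps at 0.61. Against E2f2/Dp, however, 25 of the 30 mitosis genes were higher in sign, with a median of 0.51 (47.6% of all units were positive there). None of the members of either list passed.

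**Figure D3:**
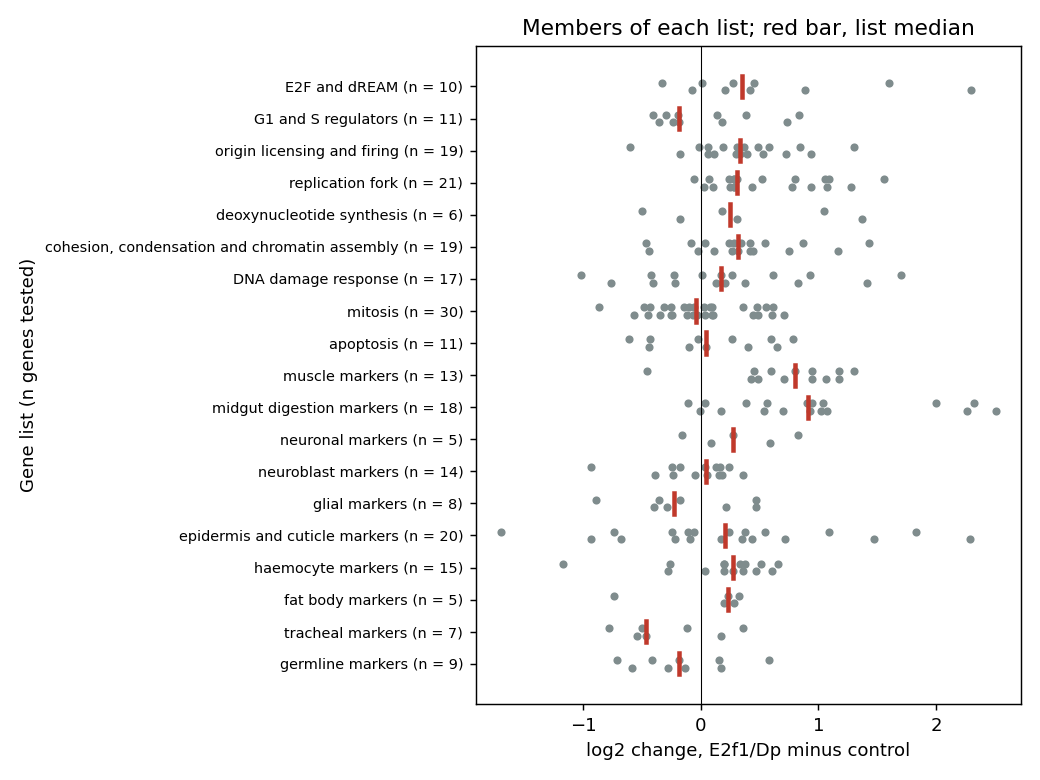
The log2 change of E2f1/Dp minus control for every tested member (grey points) of 19 gene lists, with a red bar at each list's median. The medians lie between -0.47 for tracheal markers and 0.91 for midgut digestion markers.

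The control replicates set how these lists read. The median level of the fork genes, relative to each gene's mean over all 18 arrays, was 1.10 and 1.04 on the log2 scale in E2f1/Dp embryos, against 0.97 and 0.33 in control embryos. Control replicate 1 thus lay just under both E2f1/Dp arrays. E2f2/Dp embryos were at 0.40 and 0.47 and fragment embryos at 0.50 and 0.51. Without control replicate 1 the fork median of the comparison was 0.68, and without replicate 2 it was 0.10. The origin median was 0.78 and -0.04 under the same omissions, and the deoxynucleotide median 0.61 and 0.03. The cohesion list moved less, to 0.33 and 0.25.

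For mitosis genes the same level was 0.84 and 0.43 in E2f1/Dp embryos and 0.88 and 0.33 in control embryos, so these groups overlapped. Without control replicate 1 the mitosis median was 0.23, and without replicate 2 it was -0.33. The cause of the spread in the control was not tested.

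**Figure D4:**
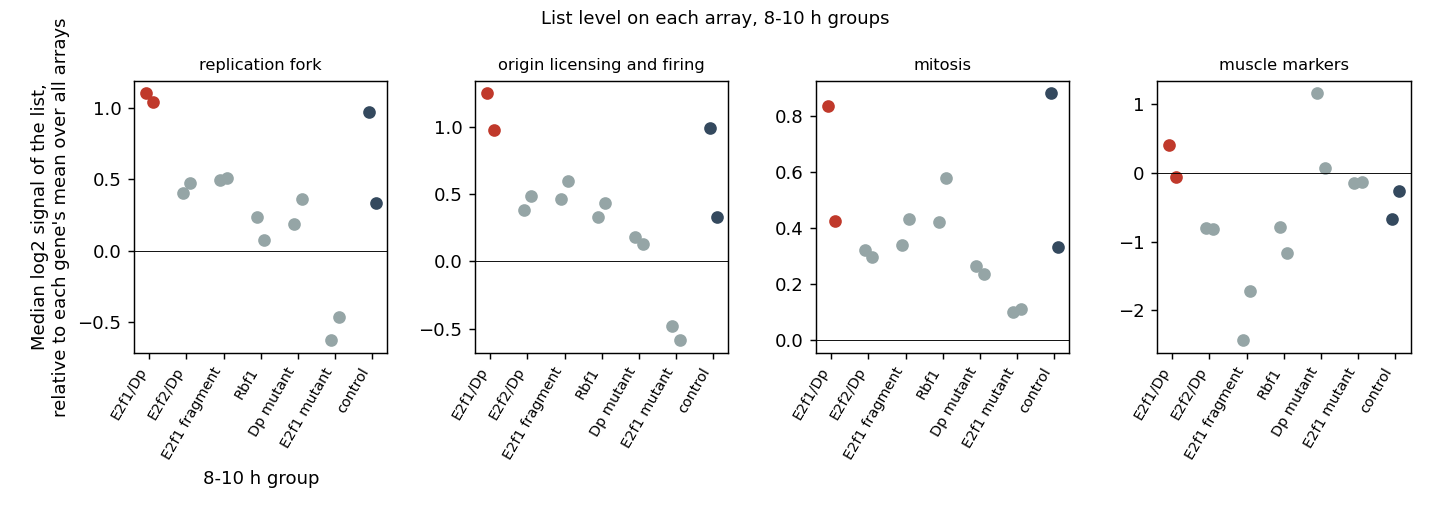
Median log2 signal of 4 gene lists on each array of the 8 to 10 h groups, relative to each gene's mean over all 18 arrays; E2f1/Dp is red, the control blue and the other groups grey. For fork genes both E2f1/Dp arrays (1.10 and 1.04) are the highest, and the control arrays (0.97 and 0.33) lie far apart.

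A count that does not lean on the control alone asks how often both E2f1/Dp arrays lay above all 12 other arrays of 8 to 10 h. That held for 148 of 8976 units (1.65%), with 129 units (1.44%) below all. Among replication fork genes it held for 8 of 21: PCNA, PolA1, PolA2, RPA1, RPA2, PolE1, PolE2 and RfC38. PolA2 is the second subunit of DNA polymerase alpha, PolE2 that of polymerase epsilon, RPA2 the middle subunit of the single-strand binding protein and RfC38 a subunit of the loader that places the clamp. RfC38 cleared the other arrays narrowly, reading 973.6 and 995.3 in E2f1/Dp embryos against a highest other value of 960.7.

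It also held for 6 of 19 cohesion and chromatin genes (SMC1, SMC2, glu, eco, asf1 and His2Av) and for 3 of 19 origin genes (Orc1, Orc5 and Mcm2). It held for 2 of 6 deoxynucleotide genes (RnrL and dnk), 4 of 30 mitosis genes (mad2, Klp61F, Klp67A and pbl), 2 of 17 DNA damage genes (rad50 and Msh6) and 1 of 11 G1 and S regulators (Cdk2). Among 10 E2F and dREAM genes, a list that holds the expressed transcripts, Dp, Rbf2 and Caf1-55 did. Over these 8 lists the count was 29 of 133 genes (21.8%) above all and 0 below all. Over the 11 lists of apoptosis and tissue markers it was 1 of 124 (0.806%), the epidermal gene ple. These shares describe the lists and were not tested. With median centring in place of quantile normalization the count over all units was 110 and that of fork genes 6.

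**Figure D5:**
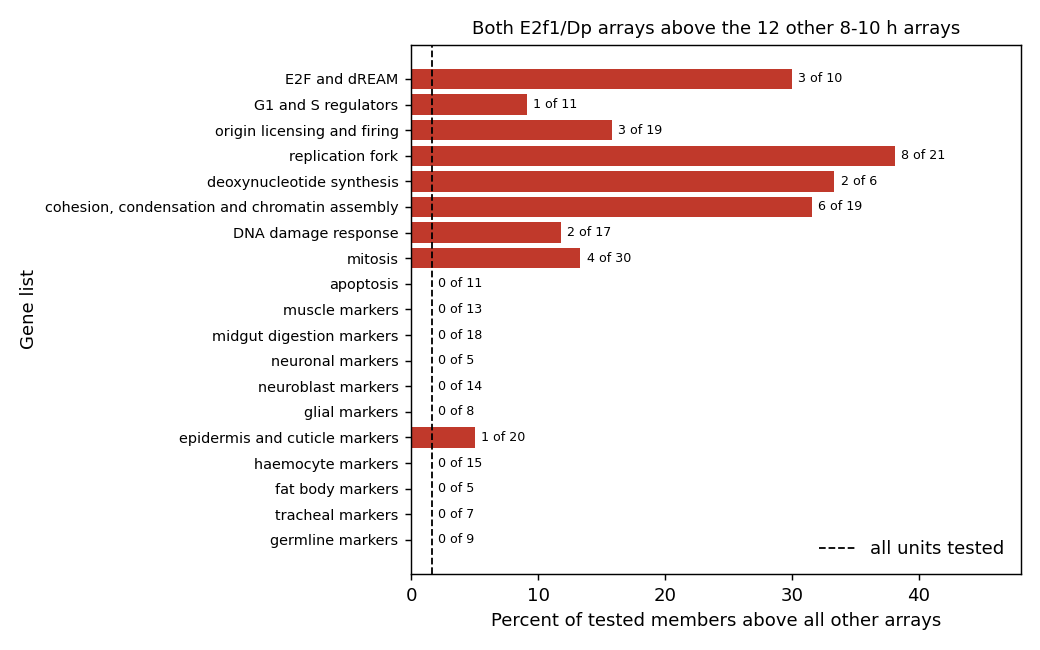
Percent of the tested members of each gene list for which both E2f1/Dp arrays lay above all 12 other 8 to 10 h arrays, with the counts beside the bars; the dashed line is the share over all units (1.65%). Bars reach 8 of 21 for fork genes and are at 0 for 10 of the tissue and apoptosis lists.

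Apoptosis genes, some of which E2F is known to drive in other settings, did not pass and leaned neither way. Of 11 members 6 were positive, with a median of 0.05. Dark, the fly apoptosome adaptor, read 288.1 and 451.8 in E2f1/Dp embryos, against 187.6 and 233.7 in control embryos (log2 0.78, adjusted p = 0.55). Dronc, the initiator caspase, read 400.1 and 405.4 in E2f1/Dp embryos, against 549.5 and 686.3 in control embryos (log2 -0.61, adjusted p = 0.571). The death ligand gene egr had a log2 change of 0.65 (adjusted p = 0.581). The killer genes rpr and hid and the caspase gene Drice are not among the members tested.

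Muscle and midgut genes had higher list medians than the replication genes, and none of them passed against the control. Of 13 muscle markers 12 were positive, with a median of 0.80, and the groups did not overlap for 9, all higher (15% of all units, with 17.4% lower). Mp20, a muscle calponin, read 6205 and 2495 in E2f1/Dp embryos, against 1553 and 1644 in control embryos (log2 1.30, adjusted p = 0.515). Mlc1, a myosin light chain, read 4383 and 3018 in E2f1/Dp embryos, against 1735 and 2505 in control embryos (log2 0.80, adjusted p = 0.547). On both genes replicate 1 of E2f1/Dp was the higher one.

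The muscle level of fragment embryos was far lower, and 7 of the 13 markers passed as higher in E2f1/Dp embryos than there (2.06% of all units). Mlc1 was 3.67 higher on the log2 scale (adjusted p = 3.44e-05), with 262 and 310.8 in fragment embryos, and the tropomyosin gene Tm2 was 4.14 higher (adjusted p = 6.08e-05). Against E2f2/Dp 1 marker passed as higher (0.178% of all units, with 0.123% lower), the paramyosin gene Prm (log2 2.91, adjusted p = 0.026).

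Midgut digestion genes had 16 of 18 positive and a median of 0.91. The trypsin gene alphaTry read 1454 and 510.7 in E2f1/Dp embryos, against 78.3 and 292.5 in control embryos (log2 2.51, adjusted p = 0.343). The protease gene Jon65Aiv read 3032 and 1356 in E2f1/Dp embryos, against 232.2 and 709.3 in control embryos (log2 2.32, adjusted p = 0.163). Both belong to families of close copies, whose probe sets may read more than 1 gene. The maltase genes Mal-A1 and Mal-A3 had log2 changes of 2.00 and 2.26 (adjusted p = 0.173 and 0.363).

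These medians also turned on single arrays. The midgut median was 0.23 without control replicate 1 and 1.41 without control replicate 2, and it was 0.31 without E2f1/Dp replicate 1. The muscle median was 0.18, 0.99 and 0.45 under the same omissions. For both lists 0 members were above all 12 other arrays, and the median level relative to each gene's mean was higher in Dp mutants, with 0.40 and -0.06 in E2f1/Dp embryos and 1.16 and 0.07 in Dp mutants for muscle.

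Epidermis and cuticle markers were mixed, with 11 of 20 positive and a median of 0.20. TwdlD, a cuticle protein of the Tweedle family, read 2894 and 2483 in E2f1/Dp embryos, against 910.9 and 1020 in control embryos (log2 1.48 ± 0.28, adjusted p = 0.0651). TwdlG, of the same family, read 635.3 and 586.9 in E2f1/Dp embryos, against 179.6 and 164.9 in control embryos (log2 1.83, adjusted p = 0.267). In the mutants of the same age mean TwdlD signal was 3385 (E2f1) and 2151 (Dp), against 2688 in E2f1/Dp embryos. Mean TwdlG signal was 424.9 and 262.2 in these mutants, against 611.1. TwdlG passed against E2f2/Dp (log2 2.46, adjusted p = 0.0454), and both genes passed against the fragment (TwdlD 2.61, adjusted p = 7.94e-05; TwdlG 2.95, adjusted p = 0.00293). The chitin synthase gene kkv was lower without passing (log2 -1.70, adjusted p = 0.493). The chitinase gene Cht6 was at the floor on both control arrays, and E2f1/Dp was at least 4.88-fold higher (adjusted p = 0.16), while of its other probe sets 1 had a log2 change of 0.24 and 1 was at the floor in both groups and gives no change.

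Transcript age was read beside these lists from 300 genes that rise and 300 that fall between the 2 ages of E2f1 mutants, list members left out, with 0 set at the 8 to 10 h and 1 at the 14 to 16 h mutants. The score was 0.0429 and 0.0418 in E2f1/Dp embryos, against -0.00269 and 0.0234 in control embryos. Fragment embryos were lower, with a mean of -0.119, and E2f2/Dp embryos had a mean of -0.0259. The 2 Dp mutant arrays lay further apart than E2f1/Dp and control did, at 0.138 and -0.0172. Control embryos of 14 to 16 h had a mean of 0.783 on this scale, which is set by mutants. The part of transcript age in the tissue lists was not tested.

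Among markers of other cell types, medians were 0.27 for neurons (5 genes), 0.04 for neuroblasts (14), -0.23 for glia (8), 0.27 for haemocytes (15), 0.23 for fat body (5), -0.47 for trachea (7) and -0.18 for the germ line (9). None of their members passed. The neuroblast gene l(1)sc was lower without passing, at 311.2 and 259.5 in E2f1/Dp embryos and 669.3 and 439.6 in control embryos (log2 -0.93, adjusted p = 0.496), while mira, which sorts fate determinants in neuroblasts, had a log2 change of 0.16 (adjusted p = 0.838). A further, dimmer probe set of mira had a log2 change of -0.62, opposite in sign. SPARC, a basement membrane gene of the haemocyte list, had 0.60 (adjusted p = 0.387), and 12 of the 15 haemocyte genes were positive (47.4% of all units). Pxn, of the same list, went the other way, with mean signals of 144.4 in E2f1/Dp embryos and 280.1 in control embryos.

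The extremes of the ranking were mostly dim genes that did not pass. Among named genes with separate groups and an unadjusted p under 0.05, the 10 highest were Sdb (2.72), CG8160 (2.59), alphaTry, CG17109 (2.46), phu, Cpr47Eb (2.40), Jon65Aiv, E2f1, CG42588 (2.30) and CG14095 (2.29). Sdb, CG17109 and Cpr47Eb were at the floor on 1 control array each, so their values and ranks depend on the floor. CG8160 read 879.5 and 555.7 in E2f1/Dp embryos, against 83.8 and 161.6 in control embryos (adjusted p = 0.079). It passed against E2f2/Dp (log2 3.14, adjusted p = 0.0232) and against the fragment, which was at the floor on both arrays (log2 at least 3.88, adjusted p = 6.7e-04). CG14095 read 1259 and 1433 in E2f1/Dp embryos, against 294.8 and 254.9 in control embryos (adjusted p = 0.16), and passed against the fragment (log2 2.83, adjusted p = 0.00625). Cpr47Eb is a cuticle protein gene, and no other role among these genes is given here.

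The 10 lowest were CG7054, CG8028 (-2.67), Spn42De, CG32687 (-2.48), CG14312, yellow-g2 (-2.16), CG34227 (-2.14), CG7650 (-2.13), CR17567 (-2.08) and Rab23. Of these only CG14312 passed, and yellow-g2 and CG34227 were at the floor on 1 E2f1/Dp array each. CG7054, the serpin gene Spn42De and the small GTPase gene Rab23 were at the floor on both E2f1/Dp arrays, so they were at least 6.55-fold, 5.66-fold and 4.19-fold lower in E2f1/Dp than in control embryos, with adjusted p = 0.079, 0.163 and 0.496. A further probe set of CG32687 had a log2 change of 0.91, opposite in sign.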

How the data were processed

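RNA of whole embryos was hybridised to 18 Affymetrix arrays of 13966 probe sets, in 9 groups of 2. The authors deposited intensity, as linear signal per probe set, scaled so that the 2% trimmed mean of an array lay between 495.1 and 497.5. The summarising software is not given in the sources used here.

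Quantile normalization was followed by a floor at the 20th percentile of all values (signal 47.5) and log2. The dimmest 30% of probe sets by mean were dropped, and each gene kept its brightest one. The annotation gives 12443 probe sets 1 gene, 327 several genes and 1196 no gene. Group means of all 18 arrays were fitted in limma 3.58.1 (R 4.3.3, eBayes with trend; 9 residual and 6.16 prior degrees of freedom), with two-sided tests adjusted by Benjamini-Hochberg over 8976 units. The number of arrays limits the precision. The limma step was tested on simulated data with independent normal noise. That run had to recover only the largest simulated shift and make few false calls. Recovery of smaller shifts is not reported here.

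The comparison, gene lists and naming rule were chosen with earlier results of these data known. Named genes are E2f1, E2f2, Dp and Rbf, all that passed, the 10 highest and 10 lowest, and up to 4 members of each list with the smallest p. Members named because both E2f1/Dp arrays lay above all others, further values at a list's ends and genes called in the other comparisons were chosen after their values were seen. Alternatives were median centring, the scaling as deposited, an offset of 50 before log2, other filters on dim probe sets, every probe set, eBayes without trend or robust, a replicate block, the compared groups alone, and each array left out. The counts of units above all other arrays, under other scalings, were added after seeing the data.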

Additional observations from a re-analysis of the deposited data

How the results depend on the processing

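For E2f1/Dp against the control, 8 units passed. The count was 13 with a log2 offset of 50 and no floor, and 19 with no filter on dim probe sets. It was 0 by limma on the 4 arrays of the compared groups alone, where 364 of 8976 units had an unadjusted p under 0.05 (767 in the main fit). It ran from 6 without E2f1/Dp replicate 1 to 100 without control replicate 2, and was 15 without control replicate 1 or E2f1/Dp replicate 2. Against E2f2/Dp 27 passed, with 16 under median centring, 9 without the trend, 6 with the compared groups alone, and 9 (either E2f2/Dp array left out) to 74 (E2f1/Dp replicate 2 left out) with 1 array less. Against the fragment 215 passed, with 42 for the compared groups alone and 83 to 263 with 1 array less. The cause of these shifts was not tested. A replicate block gave 5 units against the control. Same-numbered samples deviated together with a correlation of only 0.117 there, -0.0382 with E2f2/Dp and 0.0326 with the fragment, so the numbers were not taken as pairs; the block gave 23 and 208 units in those comparisons.

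phu, Dp and CG14312 kept their calls under 13 of 14 alternatives and lost them with the compared groups alone. 151211_at and Slc45-1 kept theirs under 12, MsrA under 8, CG15117 under 7 and 142872_at under 6. PCNA passed with the offset of 50 (adjusted p = 0.0446), as did TwdlD (0.0446), PolA1 (0.0487) and CG8160 (0.0487). PolA1 also passed with no filter on dim probe sets (0.0461). Without control replicate 1 dnk and RPA1 passed (0.0126 and 0.0404), and without control replicate 2 PolA1 (0.0339), TwdlD (0.0458), CG8160 (0.0277), Jon65Aiv (0.0192), Sdb (0.0406) and CG7054 (0.0451), the last as lower. With 1 array left out, signs reversed for trbl (-0.83 to 0.10, positive without control replicate 1), dUTPase (-0.064 to 0.68, negative without control replicate 2), Rbf (-0.051 to 0.46, negative without control replicate 2 or E2f1/Dp replicate 1) and E2f2 (-0.20 to 1.04, negative without E2f1/Dp replicate 2), none of them called. The search for E2F motifs in promoters was not run, since promoter sequence was not used here. Dim genes near the floor carry only bounds.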

Other observations

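Some genes outside the lists stood beyond all 12 other 8 to 10 h arrays on both E2f1/Dp arrays, and they were chosen after their values were seen. SA1, a cohesin subunit, read 1198 and 1622 in E2f1/Dp embryos, against 439.9 and 642.3 in control embryos (log2 1.39 ± 0.26, adjusted p = 0.0651), and the highest other array read 838.1. The centriole assembly gene ana2 read between 1814 and 1841 in E2f1/Dp embryos, against at most 1126 on the other arrays (log2 1.37 against the control, adjusted p = 0.486). Nup107, of the nuclear pore, read between 1590 and 1811 in E2f1/Dp embryos, against at most 1222 elsewhere (log2 0.85, adjusted p = 0.547), and the chromatin remodelling gene Bap170 between 2232 and 2241, against at most 1576 (log2 0.83, adjusted p = 0.392). None of these 4 passed against the control.

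Below all others stood Cyp6d5, a cytochrome P450 gene, with 1557 and 1075 in E2f1/Dp embryos, against 2166 and 3100 in control embryos (adjusted p = 0.16). It passed as lower than in E2f2/Dp embryos (log2 -1.26, adjusted p = 0.0296) and than in fragment embryos (log2 -1.70, adjusted p = 6.7e-04). Counted the same way for the other 8 to 10 h groups, 153 units were above all others with the fragment, 114 with E2f2/Dp, 459 with Rbf1, 266 in Dp mutants, 249 in E2f1 mutants and 109 in the control, beside 148 with E2f1/Dp. These are counts with no test.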
